A study of Homo sapiens with 2 samples.

Results

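This account covers 32 genes of central carbon metabolism: enzymes that feed pyruvate into the tricarboxylic acid (TCA) cycle, the cycle itself, the pentose phosphate pathway, and the enzymes that link the cycle to glutamate, glutamine and malate. The list was drawn up by gene name, with earlier results of these data known, and each is represented by the probe sets that the platform annotation pairs with that gene symbol alone. The annotation gave such probe sets to 30 of the 32 genes, 69 in all, out of 19775 genes represented on the array. FH and GPT2 were not analysed here. The arrays measured RNA of C33-A, a human cervical carcinoma cell line with adherent, epithelial growth, after stable transfection. The CA9 line carries the full-length human cDNA of carbonic anhydrase IX in the expression vector, and the vector line carries that vector without insert. Both were grown in medium with 10% serum and harvested on day 4 after seeding, and each line gave 1 array. The labels do not say whether either line is 1 clone, and in such bulk RNA a lower share of expressing cells and less RNA per cell cannot be told apart.

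Pyruvate made by glycolysis enters the mitochondrion, where the pyruvate dehydrogenase complex turns it into acetyl-CoA and pyruvate carboxylase turns it into oxaloacetate. Citrate synthase joins these products, and the cycle then oxidises citrate stepwise back to oxaloacetate, releasing carbon dioxide and loading electron carriers. The pentose phosphate pathway draws glucose carbon off in the cytosol to make NADPH and ribose phosphate. Glutamate dehydrogenase and the aminotransferases pass glutamine-derived carbon into the cycle, and malic enzymes take carbon out of it. Carbonic anhydrase IX hydrates the carbon dioxide that these reactions release, at the outer cell surface.

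No replicate exists, so every value below describes these 2 arrays and no difference was tested. Differences are log2 intensity in the CA9 line minus that in the vector line, taken from the brightest probe set of a gene, which stands for the gene unless stated. The floor was an intensity of 40.8, the median over non-control probe sets, and genes above it on at least 1 array were counted as measurable. By this rule 29 of the 30 genes were measurable, among 13823 genes in all. The exception was ME1, the cytosolic malic enzyme that makes NADPH, at 26.9 against 28.1, with its other 2 probe sets dimmer still. As a yardstick of technical disagreement, the log2 differences of probe sets of 1 gene scattered with a pooled SD of 0.29 over 5428 genes, and of 0.20 over the 19 members with 2 or more probe sets above the floor. Such probe sets read the same RNA on the same array and do not replicate each other.

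No enzyme gene of central carbon metabolism reached 1.5-fold between the CA9 and vector lines, and CS was the highest and RPE the lowest. None of the 29 measurable members was 2-fold apart, where 1.35% of all measurable genes were, and none was 1.5-fold apart, where 10.0% of all were. The members ran from -0.55 for RPE to 0.58 for CS, with a median of -0.14 and an SD of 0.28, against a median of -0.03 and an SD of 0.38 over all measurable genes. At 1.2-fold, a size chosen after no member had reached 1.5-fold, 3 members were higher in the CA9 line (CS, OGDH and PC) and 6 were lower (RPE, IDH2, SUCLG2, TALDO1, DLST and MDH1). These are 10.3% and 20.7% of the members, and over all measurable genes the shares were 20.5% higher and 22.9% lower. The split depended on the scaling. Equal medians for the arrays gave 3 higher and 8 lower members, where 2199 of all 13799 measurable genes were higher and 4080 lower. Quantile normalization gave 5 and 6 members, against 2914 and 2628 of 13799 genes. Removal of the loess trend gave 6 and 6 members, against 2911 and 2618 of 13801 genes. Equal medians also took the share of higher genes among all genes 1.2-fold apart from 47.2% to 35.0%.

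In 20 of the 29 members the difference was below 0, or 69.0%, where 53.0% of all measurable genes were below 0. The members are brighter than most genes, with a median intensity of 668 against 131. Among the 2662 measurable genes with intensities from 322 to 1170, the 25th to 75th percentile of the members, 68.0% lay below 0 and the median was -0.12. The lean of the members towards the vector line therefore had the size seen in other genes of their brightness. The SD there was 0.30, close to the 0.28 of the members, with 0.563% of genes 2-fold and 3.76% 1.5-fold apart. In that range 8.19% of genes were 1.2-fold higher and 25.8% were 1.2-fold lower. Removing the trend of the difference with brightness left 17 members below 0 and 12 above, at a median of -0.04 against 0.00 for all genes.

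**Figure D1:**
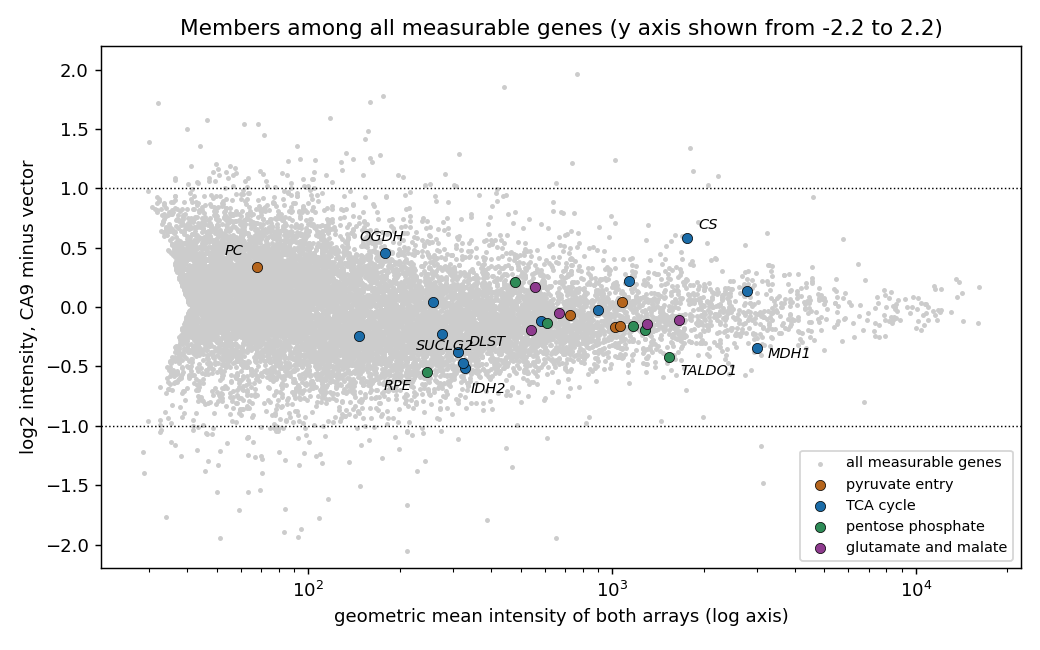
The log2 difference between the CA9 and vector arrays (y axis) is plotted against the geometric mean intensity of both arrays (log x axis) for 13823 measurable genes in grey and 29 members in colour, with dotted lines at 2-fold. Every member lies between -0.55 and 0.58, and CS stands above nearly all genes of its brightness.

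**Figure D2:**
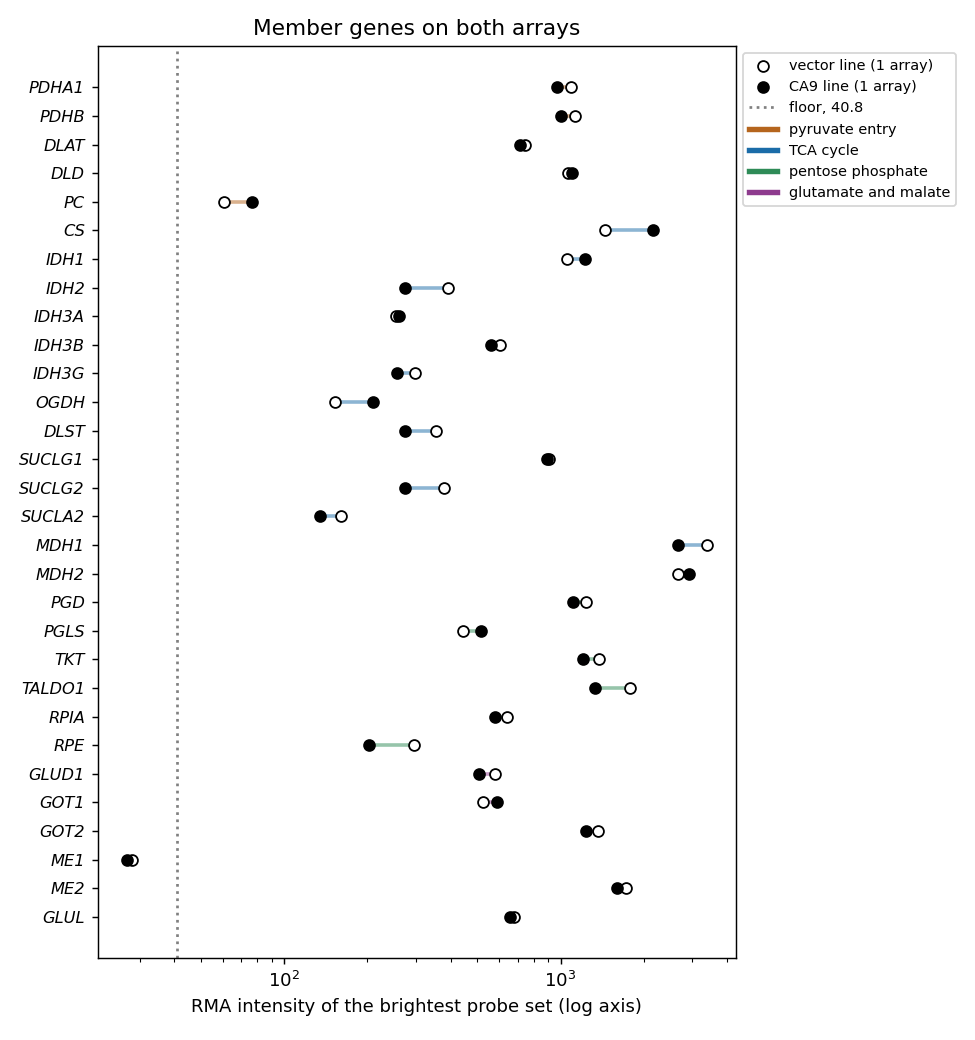
Intensity of the brightest probe set of each of 30 members on the CA9 array (filled) and the vector array (open), on a log axis, with the floor of 40.8 dotted and connecting lines coloured by role. Only the distance within a gene can be read, since probe sets differ in brightness, and CS, IDH2, OGDH, SUCLG2 and RPE have the longest connecting lines, while ME1 lies below the floor on both arrays.

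Citrate synthase, which condenses acetyl-CoA with oxaloacetate in the first step of the cycle, was the member farthest above 0. CS had an intensity of 2161 with the CA9 cDNA and 1446 with vector alone, a log2 difference of 0.58 and a 1.49-fold higher level. Few bright genes lay as far apart: of the 485 measurable genes within 0.5 log2 units of its intensity, CS included, 2.68% were at least as far from 0. CS has a single probe set, so no second one can be set beside it. It was above 0 under all 7 alternative settings, from 0.52 to 0.65.

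Conversion of isocitrate is shared by 3 enzymes, and they did not lie on 1 side of 0. IDH2, the mitochondrial NADP-dependent enzyme, stood at 274 with CA9 against 391 with vector alone, a difference of -0.51. Its second, dimmer probe set was lower as well, at 62.8 against 82.0 (-0.39). IDH1, the cytosolic NADP-dependent enzyme, lay on the other side, at 1230 against 1058 (0.22) and at 644 against 572 (0.17) in its second probe set. The difference between the compartments is thus opposite in sign in all 4 probe sets above the floor, although both IDH1 values are smaller than the SD of 0.29 between probe sets. Over the alternatives IDH2 ran from -0.57 to -0.39 and IDH1 from 0.16 to 0.30.

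The NAD-dependent isocitrate dehydrogenase, the enzyme of the cycle proper, is built from alpha, beta and gamma subunits. IDH3A was at 260 against 253 (0.04), IDH3B at 559 against 606 (-0.12) and IDH3G at 255 against 298 (-0.23). Each subunit gene had probe sets above the floor on both sides of 0, with IDH3B at 0.21 in 1 of them and IDH3G at 0.08. No direction can be given for this enzyme, whose subunits spanned 0.27 log2 units.

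The oxoglutarate dehydrogenase complex, which makes succinyl-CoA, was the complex whose subunit genes lay farthest apart, with a range of 0.83. OGDH, its decarboxylating subunit, was higher in the CA9 line at 209 against 153 (0.45, 1.37-fold), and a second probe set at 201 against 153 gave 0.39. DLST, the succinyltransferase core, was lower at 273 against 355 (-0.38) in its only probe set. The name of that probe set ends in _s_at, a kind that can also detect related transcripts. DLD, the lipoamide dehydrogenase shared with the pyruvate complex, was at 1099 against 1064 (0.05), and its dim second probe set was at 42.2 against 54.2 (-0.36).

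Succinyl-CoA ligase pairs 1 alpha subunit with a beta subunit specific for guanine or adenine nucleotides. SUCLG2, the guanine-specific beta subunit, was lower in the CA9 line in all 3 of its probe sets above the floor. The intensities were 274 against 379 (-0.47), 238 against 366 (-0.62) and 195 against 303 (-0.64), so that 2 of the 3 passed 1.5-fold, at 1.54-fold and 1.55-fold, while the brightest was at 1.38-fold. All 3 have names ending in _x_at or _s_at, so the setting without such probe sets gave no value for SUCLG2. SUCLA2, the adenine-specific subunit, was at 135 against 160 (-0.24), and the common alpha subunit SUCLG1 was nearly level at 892 against 906 (-0.02).

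Malate dehydrogenase closes the cycle in the mitochondrion and has a cytosolic counterpart in the malate-aspartate shuttle. MDH1, the cytosolic enzyme, was lower in the CA9 line at 2665 against 3376 (-0.34), and 9.09% of the 264 genes of similar intensity were as far from 0. MDH2, the mitochondrial enzyme, was at 2920 against 2659 (0.14), and its second probe set gave -0.02. The TCA cycle genes as a group had a median of -0.12, with 5 of 13 above 0 and 61.5% below, against 53.0% of all measurable genes below. Leaving out _x_at and _s_at probe sets gave a median of 0.18, but over 9 genes only. That setting drops IDH3G, DLST, SUCLG2 and SUCLA2, all below 0. Its median is the value of IDH3A in a probe set near the floor, at 49.3 against 43.5. Averaged probe sets gave 0.01 over all 13 genes, so the group has no settled direction.

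**Figure D3:**
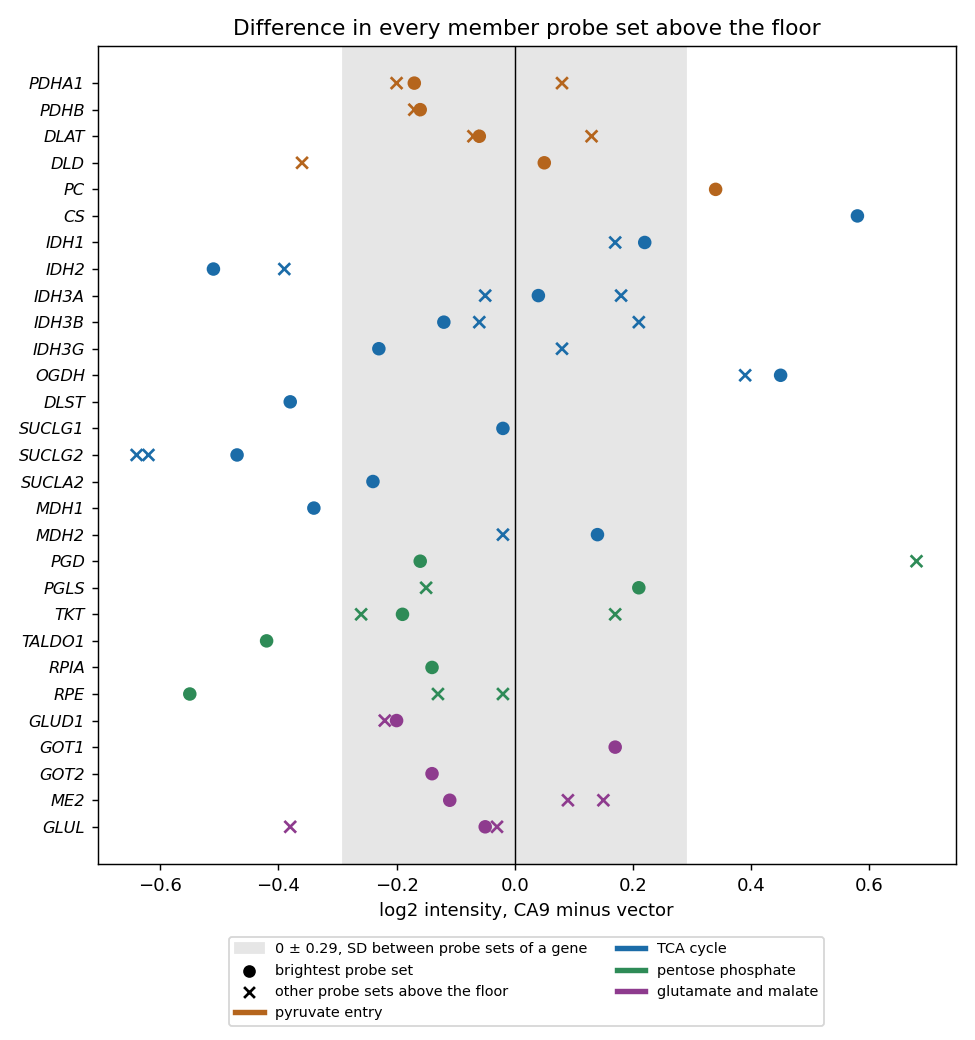
The log2 difference between the CA9 and vector lines in each of the 57 member probe sets above the floor on both arrays, with circles for the brightest probe set of a gene, crosses for the others and a grey band of 0.29 on either side of 0 for the SD between probe sets. All probe sets of SUCLG2 and IDH2 lie to the left of the band and both of OGDH to its right, whereas those of PGD fall on both sides of 0.

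For the cycle genes that stood farthest apart, the 250 bases before an annotated start are printed. These are CS, the highest, and IDH2 and SUCLG2, the lowest cycle genes by their brightest probe set. Whether C33-A cells use these starts, or others of the same genes, was not tested. Sequences are from RefSeq, build GRCh38.p14, written 5′ to 3′ in the direction of the gene. Capitals mark GGGCGG (the GC box, bound by SP1-like factors), CCAAT (bound by NF-Y), CCGGAAG (an ETS site), and ACGTG or GCGTG (the core of hypoxia response elements), on either strand.
CS, chr12:56300331-56300580, minus strand: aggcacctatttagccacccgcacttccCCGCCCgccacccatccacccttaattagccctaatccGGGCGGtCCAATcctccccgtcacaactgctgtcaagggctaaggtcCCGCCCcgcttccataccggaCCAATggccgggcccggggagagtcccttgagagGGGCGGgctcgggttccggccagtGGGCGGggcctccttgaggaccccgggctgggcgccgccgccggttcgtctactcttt
IDH2, chr15:90100622-90100871, minus strand: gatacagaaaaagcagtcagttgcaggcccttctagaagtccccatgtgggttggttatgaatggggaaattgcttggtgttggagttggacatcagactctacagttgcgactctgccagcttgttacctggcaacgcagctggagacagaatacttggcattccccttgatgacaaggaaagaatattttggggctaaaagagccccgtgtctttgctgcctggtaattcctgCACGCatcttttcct
SUCLG2, chr3:67654613-67654862, minus strand: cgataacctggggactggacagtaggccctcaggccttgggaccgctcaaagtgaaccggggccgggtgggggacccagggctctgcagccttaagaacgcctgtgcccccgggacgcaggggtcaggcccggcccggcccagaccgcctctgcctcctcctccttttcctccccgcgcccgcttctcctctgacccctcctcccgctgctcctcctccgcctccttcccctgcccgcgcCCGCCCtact

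The CS window holds 5 GC boxes and 2 CCAAT boxes, the SUCLG2 window holds 1 GC box that begins 10 bases before the start, and the IDH2 window holds 1 GCGTG on the opposite strand, 15 bases before the start. Their GC content was 67.6% for CS, 71.2% for SUCLG2 and 48.4% for IDH2. Neither hypoxia response core was found in the CS or SUCLG2 windows. Windows were found for 30 of the 32 members, 36 in all because some genes have several starts, and OGDH and GPT2 had no entry. A GC box was in 66.7% of the 36 windows and in 42.6% of all 35116 windows of this length in the table. CCAAT was in 19 of the 36 and in 11240 of the 35116. GCGTG was in 55.6% against 32.2%, ACGTG in 19.4% against 18.5%, and CCGGAAG in 16.7% against 8.52%. The E-box CACGTG, which contains ACGTG, was in 2.78% against 6.34%, in PDHB alone among the members. These are matches of letters, and the arrays say nothing about what is bound there.

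The genes that bring pyruvate into the cycle were nearly level, apart from a dim one. PDHA1 and PDHB, the subunits of pyruvate dehydrogenase itself, were at 969 against 1087 (-0.17) and at 1006 against 1124 (-0.16). DLAT, the transacetylase core, was at 711 against 743 (-0.06). Together with DLD the 4 genes of the complex spanned 0.21 log2 units, the narrowest range of the 4 multi-subunit enzymes described here. The other probe sets of PDHA1 gave 0.08 and -0.20 and those of DLAT 0.13 and -0.07, while the second of PDHB was at -0.17. PC, pyruvate carboxylase, was higher at 76.3 against 60.5 (0.34), not far above the floor, where 35.4% of the 3980 genes of similar intensity were at least as far from 0.

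In the pentose phosphate pathway 5 of 6 genes lay below 0 (83.3%) and the median was -0.18. Of all measurable genes 53.0% lay below 0, and of those with intensities from 322 to 1170 the share was 68.0%. That range was set by all members, and TALDO1, TKT and RPE lie outside it on both arrays. The 68.0% is therefore no close match of brightness for this pathway. Removal of the loess trend left the median of the 6 pathway genes at -0.1. TALDO1, the transaldolase of the non-oxidative branch, was lower at 1332 against 1784 (-0.42, 1.34-fold), and 7.25% of the 524 genes of its brightness were as far from 0. It has 1 probe set, named _s_at. TKT, the transketolase that works beside it, was at 1201 against 1373 (-0.19), while further probe sets gave 0.17 and -0.26. RPIA, which interconverts ribulose and ribose phosphate, was at 581 against 639 (-0.14).

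RPE, the ribulose phosphate epimerase, was the member farthest below 0 by its brightest probe set, at 203 against 296 (-0.55). Its other probe sets above the floor gave 186 against 203 (-0.13) and 184 against 187 (-0.02). The average over all its probe sets, including one below the floor at 8.5 against 8.82 (-0.05), was -0.19. Without the _s_at probe set the value was -0.13, so the size of the RPE difference rests on 1 probe set.

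The oxidative branch makes the NADPH of the pathway. PGD, its phosphogluconate dehydrogenase, was at 1107 against 1237 (-0.16), but a dim second probe set gave 73.3 against 45.8 (0.68), the highest value of any member probe set. The average over all probe sets of PGD, including one below the floor at 32.2 against 29.1 (0.15), was 0.22. PGLS, the lactonase before it, was at 516 against 445 (0.21) and at 363 against 402 (-0.15) in its second probe set. The direction of both genes thus depends on the probe set.

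Of the 5 measurable genes around glutamate and malate none was 1.2-fold apart by its brightest probe set. Over all measurable genes 20.5% were 1.2-fold higher and 22.9% lower, and 5 genes are too few to set the group apart from these shares. GLUD1, glutamate dehydrogenase, was at 507 against 580 (-0.20), and its second probe set gave -0.22. A near-identical gene copy exists for GLUD1, so its probe sets may detect both. GOT1 and GOT2, the cytosolic and mitochondrial aspartate aminotransferases of the malate-aspartate shuttle, were at 591 against 526 (0.17) and at 1237 against 1365 (-0.14). By the brightest probe sets the sign was thus reversed between the compartments relative to malate dehydrogenase, where the cytosolic MDH1 was the lower one. However, the values of GOT1, GOT2 and MDH2 (0.14) are smaller than the SD of 0.29 between probe sets. The second probe set of MDH2 was at -0.02. ME2, the mitochondrial malic enzyme, was at 1607 against 1728 (-0.11), while its dimmer probe sets gave 0.15 and 0.09. GLUL, glutamine synthetase, which makes glutamine from glutamate and ammonia, was at 656 against 679 (-0.05), and its dimmer probe sets gave -0.03 and -0.38.

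Probe sets of a gene did not always lie on the same side of 0. Of the 19 members with 2 or more probe sets above the floor, 8 had all of them on 1 side of 0 (42.1%, against 51.4% of 5428 genes): OGDH and IDH1 above, and IDH2, SUCLG2, PDHB, RPE, GLUD1 and GLUL below. Among these, OGDH, IDH2 and SUCLG2 were the ones with every such probe set beyond 0.29. Location did not divide the members: 13 of 19 measurable mitochondrial enzymes and 7 of 10 cytosolic ones lay below 0.

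**Figure D4:**
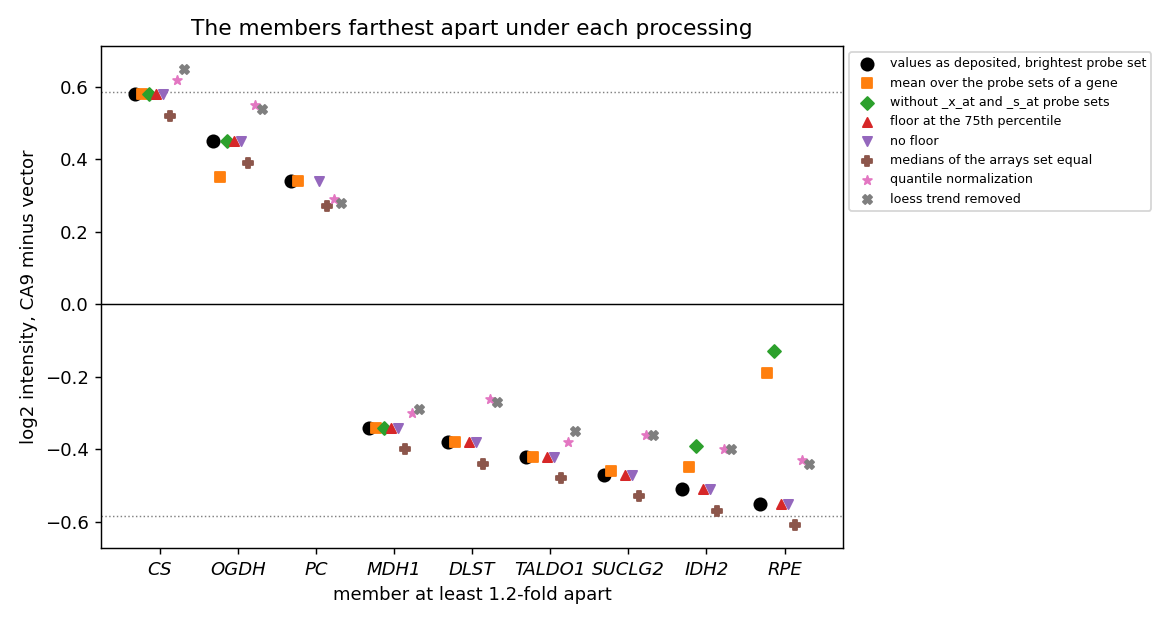
Log2 difference between the CA9 and vector lines for the 9 members at least 1.2-fold apart, as deposited (black circles) and under 7 other settings, with dotted lines at 1.5-fold. CS stays between 0.52 and 0.65 and SUCLG2, in the 6 settings that gave it a value, between -0.53 and -0.36, while RPE moves from -0.55 to -0.13 when probe sets named _x_at and _s_at are left out.

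A list of 62 other genes of these pathways held 49 measurable ones, among them regulators, assembly factors, carriers and neighbouring enzymes. None was 2-fold apart, 2 were 1.5-fold lower in the CA9 line and none was 1.5-fold higher. Of all measurable genes 1.35% were 2-fold and 10.0% were 1.5-fold apart. The median of the 49 genes was -0.07 with 17 above 0, and 65.3% lay below 0, against 53.0% of all measurable genes. SDHAF2, an assembly factor that helps attach the flavin cofactor of succinate dehydrogenase, was at 202 against 333 (-0.72, 1.65-fold lower). MPC1, a subunit of the mitochondrial pyruvate carrier, was at 82.6 against 127 (-0.62, 1.54-fold lower), whereas its partner MPC2 was at 824 against 862 (-0.07). Each has 1 probe set above the floor. At 1.2-fold, 4 of the 49 genes were higher and 12 were lower, where 20.5% of all measurable genes were higher and 22.9% lower. The following genes, all above 0, were picked after their values were seen, as was MPC2. They do not represent the list. SLC25A1, which exports citrate from the mitochondrion, was higher at 313 against 224 (0.48), and ACLY, which splits citrate in the cytosol, was at 2329 against 2127 (0.13). CAD, which uses glutamine to start pyrimidine synthesis, was at 667 against 478 (0.48).

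Facts of the arrays as a whole bear on these values. CA9 itself has no probe set under its name in the annotation, and its expression was not analysed here. Between the 3′ and 5′ control probe sets of ACTB the log2 signal differed by 0.67 with CA9 and 0.73 with vector alone, and between those of GAPDH by 0.06 and 0.04. Of 7 epithelial markers 4 lay above the floor on each array, with summed intensities of 375 (CA9) and 287 (vector), and EPCAM and CDH1 were below it on both. KRT19 was above it only on the CA9 array (44.7 against 39.4) and KRT5 only on the vector array (39.0 against 48.0). The 7 fibroblast markers summed to 3106 and 2838, mostly from COL3A1 at 2538 and 2339, with LUM below the floor. The 4 represented blood markers summed to 185 and 209, with CD3E below the floor on both arrays. PTPRC was above it only on the vector array (30.1 against 58.1) and CD14 only on the CA9 array (57.1 against 36.9). The 4 endothelial markers summed to 181 and 152, with CDH5 and KDR below the floor on both. The part of other cell types in the results was not tested.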

How the data were processed

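Biotinylated cRNA from 5 µg of total RNA per line was hybridised to Affymetrix arrays, per the labels' protocols. The authors deposited 1 intensity per probe set and array, and the submitters' processing notes name RMA as the method. Its version, background setting and probe definitions are not given in the sources used here. The intensity values are on a linear scale, read from their range, and log2 was taken with no pseudocount added. The number of arrays limits the precision. Probe sets were named through the platform annotation, with symbols updated by Entrez identifier to RefSeq (GRCh38.p14) for 41037 of 41091 probe sets with 1 gene, and the 1801 with several genes were left unnamed. The brightest probe set stood for a gene. With 1 array per line there was no test, and calls were by size. All members could be named, and of the other pathway genes those at least 1.5-fold apart, while others named were picked after their values were seen. The members, gene lists and roles were chosen with earlier results of these data known. Alternatives were averaged probe sets, no _x_at or _s_at probe sets, a floor at the 75th percentile or none, equal medians, quantile normalization and removal of a loess trend. The averages took in probe sets below the floor. Python 3.11.15, numpy 2.4.6, pandas 2.3.3, statsmodels 0.14.6 and matplotlib 3.10.9 were used, and the steps were tested on simulated data.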

Additional observations from a re-analysis of the deposited data

Results flagged for a closer look

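A probe set that the annotation assigns to both RPE and RPEL1 entered no comparison, since it names several genes. It was above the floor and higher in the CA9 line, at 142 against 109 (log2 difference 0.38), on the other side of 0 from the probe sets of RPE alone.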

How the results depend on the processing

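No member was 2-fold apart under any of the 7 settings. Setting medians equal, quantile normalization and loess removal each brought 1 member past 1.5-fold, RPE in the first (-0.61) and CS in the others (0.62 and 0.65). Over all measurable genes, 1498 of 13799, 1316 of 13799 and 1301 of 13801 were 1.5-fold apart in these settings. The median of the members ran from -0.20 (equal medians) to -0.04 (loess removed), and was -0.07 over all 57 probe sets above the floor, a unit added after the values were seen. Without probe sets named _x_at or _s_at, 21 members were left, 4 of them 1.2-fold apart (2 higher and 2 lower). Of all 10663 measurable genes in that setting, 2193 were 1.2-fold higher and 2655 lower. The median of the 9 TCA cycle genes left was 0.18. In that setting 5 of 36 other pathway genes were 1.5-fold apart, where 1189 of all 10663 measurable genes were. Over all genes, averaged probe sets gave 92 genes 2-fold and 785 genes 1.5-fold apart among 11972 measurable ones. The floor at the 75th percentile left 122 and 774 among 8516, in place of 186 and 1386 among 13823. Both of these settings leave fewer measurable genes. Of the 29 members, 20 kept their sign in every setting that gave a value. The 9 that did not were IDH3A, IDH3B, DLD, SUCLG1, MDH2, DLAT, PGD, ME2 and GLUL. The cause of these changes was not tested.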

Other observations

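The SLC25A carriers in the list of other pathway genes lay above 0, a pattern seen after the values were known, while both subunits of the mitochondrial pyruvate carrier in that list, MPC1 (-0.62) and MPC2 (-0.07), lay below it. All 6 SLC25A genes (SLC25A1, SLC25A10, SLC25A11, SLC25A12, SLC25A13 and SLC25A22) had values from 0.07 to 0.48. They were also above 0 under 5 of the 6 settings that gave values for all of them (from 0.01 with equal medians to 0.59 after loess removal). With averaged probe sets 5 of the 6 were above 0 and the lowest was -0.31, and without _x_at and _s_at probe sets all of the 5 with a value were. Over the whole carrier family, 16 of 36 measurable SLC25A genes were above 0 and the median was -0.12.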
